A study of Saccharomyces cerevisiae with 6 samples.

Results

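Transcripts of 10 genes of the heat shock protein and chaperone families were measured in an engineered, xylose-fermenting *Saccharomyces cerevisiae* strain and in its *THI2* deletion derivative. The genes were chosen by symbol, with earlier results of these data known. They are *HSP82* and *HSC82*, which encode the Hsp90 chaperone, its co-chaperone gene *STI1*, the disaggregase genes *HSP104* and *HSP78*, and the chaperonin genes *HSP60* and *HSP10*. The others are *HSP12*, *HSP26* and *HSP42*, grouped here as genes of small heat shock proteins. All 10 were found among the 5925 genes of the deposited files, and all 10 passed the filter on low counts that left 5774 genes for the test.

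The 6 libraries of poly(A) RNA came from 3 samples of BSGX001 and 3 samples of BSGX001 (thi2Δ), each taken at 20 h of a co-fermentation in yeast nitrogen base medium at 30 °C and 200 rpm, with glucose and xylose at 20 g/L each. The submitters call this the GX stage, and the series title places it in the phase of xylose use that follows the depletion of glucose. Both strains derive from CEN.PK 113-5D and carry the alterations labelled Ru-XI, XK, gre3::PPP and cox4delta, and both went through adaptive evolution in xylose. BSGX001 (thi2Δ) carries thi2delta in addition. How many clones of each strain were grown is not given in the sources used here, and the triplicates are not said to be separate cultures, so the p-values measure only the spread between these samples, which may be technical. In bulk RNA, fewer cells that express a gene and less RNA per cell cannot be told apart.

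The libraries held 7584920 to 12255688 counts. *THI2*, the targeted gene, had 24.7 ± 2.18 CPM (counts scaled to library size, SD, n = 3) in BSGX001 and fell to 11.5 ± 2.12 CPM in the deletion strain, with no overlap between the strains, so that reads on the gene remained in the strain labelled as deleted. *COX4* and *GRE3*, which the labels give as deleted or replaced, were still read in both strains, at 32.2 ± 3.66 and 63.0 ± 2.68 CPM in BSGX001. The strains also differed over whole regions. Of the 85 genes tested on chromosome I, 83 were higher in BSGX001 (thi2Δ), at a median of 0.99 in log2 units, and a segment of chromosome XII that holds *HSP60* was higher too, as described with that gene.

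Heat shock proteins keep other proteins folded. Hsp90 finishes the folding of kinases and other clients that Sti1 hands over from Hsp70, while Hsp104 in the cytosol and Hsp78 in mitochondria pull proteins out of aggregates. Hsp60 and Hsp10 form the chamber and lid of the mitochondrial chaperonin, Hsp26 and Hsp42 bind unfolding proteins before they aggregate, and Hsp12 is a small stress protein that associates with membranes. In yeast most of these genes are transcribed by Hsf1, which binds heat shock elements, and many also by Msn2 and Msn4, which bind stress response elements and act when glucose runs out.

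The sequences upstream of the genes were read first, to see which of the 10 genes hold matches to these elements. The 500 bases before each start codon in the R64 assembly of S288C, the build that the submitters name, were searched on both strands. The motifs were a 2-unit heat shock element (GAANNTTC or TTCNNGAA), a 3-unit element (GAANNTTC followed by NNGAA, or its reverse complement, each of which also contains 2-unit elements) and a stress response element (CCCCT). The 3-unit element was found upstream of 6 of the 10 genes, against 86 of 5923 such windows in the genome, or 1.45%. The 2-unit form was found upstream of 9 of the 10 genes, against 35.2% of all windows, and the stress response element upstream of 6, against 34.2%. No stress response element overlapped a heat shock element in these 10 windows. A match describes the letters in S288C only, and binding was not measured. The upstream sequences of the strains studied here were not read and may differ.

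Transcripts of the 6 genes that hold a 3-unit element did not all move the same way, and *HSP60*, which rose, lies in a raised block described below. The 3-unit elements of these genes are shown in capitals with 12 bases on either side. They lie at chrXV:380799-380835 and chrXV:380825-380861 (forward strand, *STI1*), chrXII:88309-88350 (forward, *HSP104*), chrIV:974461-974502 (reverse, *HSP78*), chrIV:806366-806407 (forward, *HSP42*), chrXII:665188-665224 (reverse, *HSP60*) and chrXV:370980-371016 (reverse, *HSP10*). In *HSP104*, *HSP78* and *HSP42* a pair of 3-unit matches overlap and form a longer run.
STI1, distal: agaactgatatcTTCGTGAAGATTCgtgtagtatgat
STI1, proximal: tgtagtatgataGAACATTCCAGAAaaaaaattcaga
HSP104: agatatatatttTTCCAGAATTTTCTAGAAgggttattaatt
HSP78: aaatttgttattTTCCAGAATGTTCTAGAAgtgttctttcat
HSP42: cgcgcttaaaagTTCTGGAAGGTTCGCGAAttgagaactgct
HSP60: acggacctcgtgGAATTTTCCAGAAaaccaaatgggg
HSP10: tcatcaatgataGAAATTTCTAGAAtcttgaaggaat

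The other 4 genes lack a 3-unit match in this window. *HSP82* at chrXVI:98841-98872 (reverse strand), *HSC82* at chrXIII:632126-632189 (forward) and *HSP26* at chrII:381664-381695 (forward) hold 2-unit elements, given in capitals below. The stretches show 1 of the 2 elements of *HSP82* and 2 of the 3 of *HSC82*, and leave out the one nearest to the start codon of each, whose first base lies 67 bases upstream in *HSP82* and 48 in *HSC82*. *HSP12* had no heat shock element of either form and 5 stress response elements, of which the pair nearest to the gene, at chrVI:107012-107082 (forward), is shown.
HSP82: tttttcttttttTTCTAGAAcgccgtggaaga
HSC82: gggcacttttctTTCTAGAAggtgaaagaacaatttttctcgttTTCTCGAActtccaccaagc
HSP26: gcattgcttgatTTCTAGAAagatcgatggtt
HSP12: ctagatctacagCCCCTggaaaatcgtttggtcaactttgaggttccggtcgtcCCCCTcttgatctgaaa

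**Figure D1:**
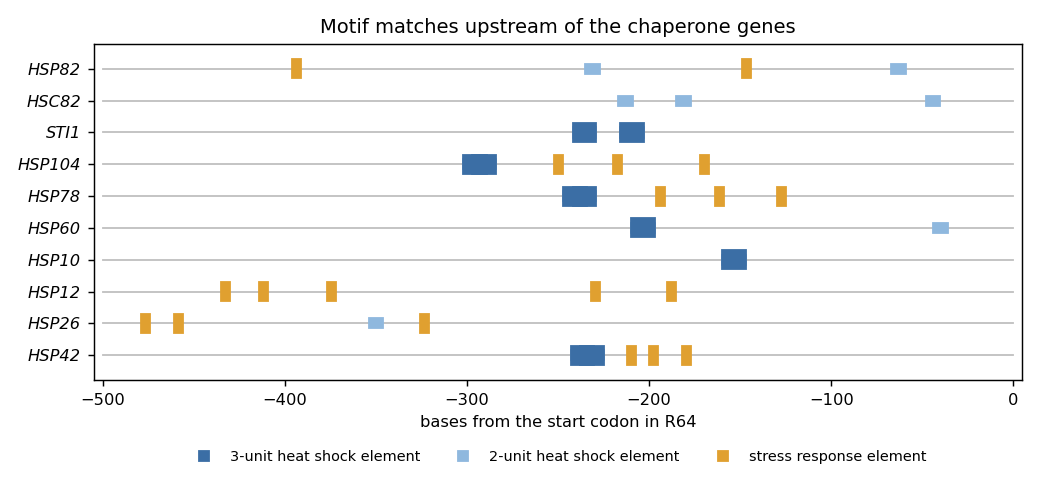
Motif matches in the 500 bases upstream of the start codon of each of the 10 genes, with distance from the start codon in bases on the horizontal axis. Dark blocks are 3-unit heat shock elements (6 genes), light blocks are 2-unit elements outside them and orange blocks are stress response elements, of which *HSP12* holds 5 and *STI1*, *HSC82*, *HSP60* and *HSP10* none.

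The comparison of BSGX001 (thi2Δ) with BSGX001 asked how transcripts in that phase differed in the strain labelled as deleted for *THI2*, in which reads on that gene and the raised regions remain as given above. Of the 10 genes, 7 fell, 2 rose and 1 did not pass the test (adjusted p under 0.05, edgeR's quasi-likelihood test with Benjamini-Hochberg adjustment over the 5774 genes). Over all genes tested, 26.1% were higher and 25.2% lower by the same rule, 51.3% in all. No member changed by 2-fold or more, which 2.03% of all genes did upward and 0.364% downward. *HSP82*, *HSC82*, *STI1*, *HSP104*, *HSP78*, *HSP26* and *HSP42* fell, *HSP60* and *HSP12* rose, and *HSP10* was the gene that did not pass. The median log2 fold change was -0.50 over the 10 genes and 0.0093 over all genes tested. The direction of *HSC82* and of *HSP10* turned with the scaling, while the other 8 genes kept theirs under all 16 alternative fits.

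The fall of the abundant genes showed in the make-up of the libraries. The 10 genes together took up 3.14%, 2.73% and 2.93% of the counts in the BSGX001 libraries and 2.49%, 2.38% and 2.35% in those of BSGX001 (thi2Δ). The shares did not overlap, and the difference between the means was -0.53 percentage points (2.93% ± 0.20 against 2.41% ± 0.078, SD, n = 3 each, exact two-sided permutation p = 0.1, the smallest that 3 against 3 libraries can give).

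**Figure D2:**
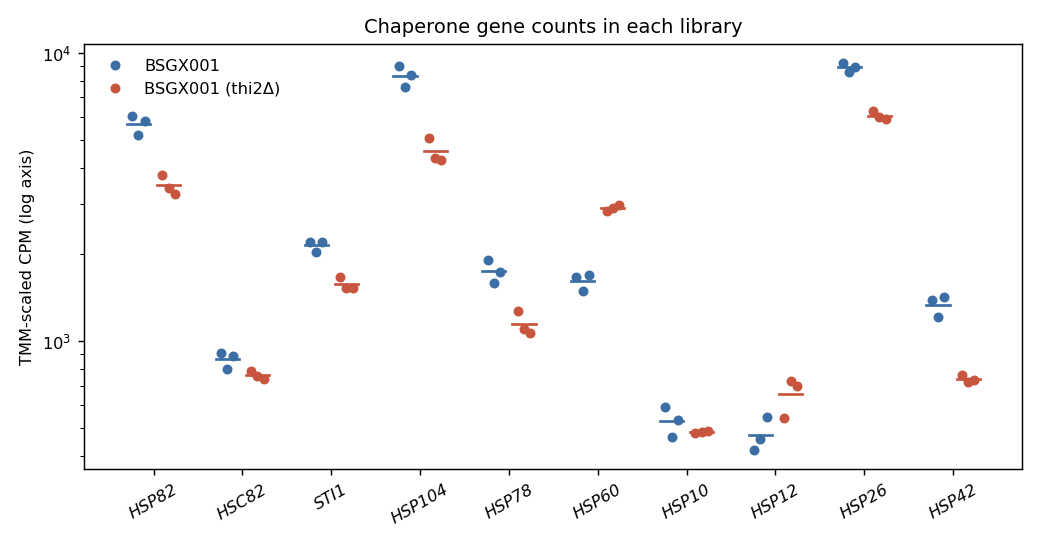
CPM after TMM scaling (log axis) of the 10 genes in each of the 6 libraries, with a line at each strain's mean of 3. The points of the strains are separate for 8 genes and overlap for *HSP10* and *HSP12*.

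Levels between genes were compared as FPKM, the authors' values scaled to gene length and read number. FPKM follow library totals, which place BSGX001 (thi2Δ) higher than TMM does, by 0.22 on the log2 scale for the median gene, so that levels as FPKM are ordered here within a strain and not compared between strains, except as a ratio of genes within a library. *HSP26* stood far above the others in both strains, at 12823.5 ± 538 FPKM in BSGX001 and 10110.4 ± 204 FPKM in BSGX001 (thi2Δ) (SD, n = 3 each), which is rank 5 and rank 7 of the 5925 genes. In BSGX001 the order went on with *HSP104* (2831 FPKM), *HSP82* (2474), *HSP10* (1529.8), *HSP12* (1327), *STI1* (1125), *HSP42* (1101), *HSP60* (871), *HSP78* (665) and *HSC82* (380). The ranges of *HSP104* and *HSP82*, of *HSP10* and *HSP12* and of *STI1* and *HSP42* overlapped.

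In BSGX001 (thi2Δ) the order below *HSP26* was *HSP12* (2145 FPKM), *HSP60* (1816), *HSP104* (1797), *HSP82* (1756), *HSP10* (1622), *STI1* (959), *HSP42* (706), *HSP78* (507) and *HSC82* (387). From *HSP12* to *HSP82* each neighbour overlapped the next, and from *HSP82* down none did. *HSP60* moved from rank 157 to rank 53 of all genes and *HSP42* from rank 108 to rank 208. *HSC82* was the lowest of the 10 in both strains.

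The Hsp90 genes had unlike fold changes. *HSP82*, the stress-inducible gene on chromosome XVI (96496 to 98625, reverse strand), had 6045, 5176 and 5821 CPM in the BSGX001 libraries and 3768, 3409 and 3237 CPM in those of BSGX001 (thi2Δ). Every BSGX001 library lay above every BSGX001 (thi2Δ) library. *HSP82* fell by 0.71 ± 0.086 (SE) in log2 units (adjusted p = 3.87e-08, edgeR), to 0.611 of its level in BSGX001.

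*HSC82*, its constitutive paralog on chromosome XIII (632355 to 634472, forward strand), had 912, 801 and 886 CPM in BSGX001 against 789, 754 and 738 in BSGX001 (thi2Δ). The strains were separate, but by a gap smaller than the spread within BSGX001. The log2 fold change of *HSC82* was -0.19 ± 0.072 (SE, adjusted p = 0.0283, edgeR). This call was lost without BSGX001 replicate 1, at -0.15 (adjusted p = 0.114, edgeR), without BSGX001 replicate 3, at -0.17 (adjusted p = 0.0688), without BSGX001 (thi2Δ) replicate 2, at -0.18 (adjusted p = 0.0796), and without BSGX001 (thi2Δ) replicate 3, at -0.17 (adjusted p = 0.122), and the sign turned with library totals.

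The ratio of *HSP82* to *HSC82* within a library does not depend on the scaling. Its log2 value was 2.73, 2.69 and 2.72 in BSGX001 and 2.26, 2.18 and 2.13 in BSGX001 (thi2Δ), lower in all 3 libraries of the deletion strain. The mean went from 6.55 to 4.56 counts of *HSP82* per count of *HSC82*, a log2 difference of -0.52 (exact two-sided permutation p = 0.1, the smallest possible). The coding sequences are identical at 1955 of 2115 aligned bases (92.43%), and 6.43% of the 50-base windows of *HSC82* occur unchanged in *HSP82*, so that the authors' counting could have divided some reads between them. Their summed counts, which are free of such a division, fell by 0.63 ± 0.086 (SE) in log2 units (adjusted p = 3.68e-07, edgeR), from 6547 ± 510 to 4232 ± 297 CPM (SD, n = 3 each). No 50-base window of the other 8 genes occurs elsewhere in R64, and no annotated gene overlaps any of the 10.

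*STI1*, on chromosome XV (381053 to 382822, forward strand), fell with *HSP82*. It had 2202, 2030.0 and 2209 CPM in BSGX001 against 1670, 1524 and 1530 in BSGX001 (thi2Δ), and the strains did not overlap. Its log2 fold change was -0.45 ± 0.076 (SE, adjusted p = 1.21e-05, edgeR).

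The disaggregase genes fell in both compartments. *HSP104*, on chromosome XII (88623 to 91349, forward strand) and far to the left of the segment that holds *HSP60*, had 8999, 7586 and 8373 CPM in BSGX001 against 5049, 4333 and 4262 in BSGX001 (thi2Δ). Its log2 fold change of -0.87 ± 0.090 (SE, adjusted p = 1.82e-09, edgeR) was the lowest of the 10 genes, within its error of that of *HSP42*, and ranked 5725 of the 5774 genes tested, counted from the largest rise. Its level in BSGX001 (thi2Δ) was 0.547 of that in BSGX001.

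*HSP78*, the mitochondrial counterpart on chromosome IV (971808 to 974243, reverse strand), had 1908, 1589 and 1737 CPM in BSGX001 against 1269, 1100 and 1070 in BSGX001 (thi2Δ). It fell by 0.61 ± 0.081 (SE) in log2 units (adjusted p = 2.69e-07, edgeR). In both disaggregase genes replicate 1 was the highest library of each strain, and the lowest BSGX001 library still lay above the highest of BSGX001 (thi2Δ).

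The chaperonin genes were split. *HSP60*, on chromosome XII (663284 to 665002, reverse strand), had 1663, 1491 and 1690 CPM in BSGX001 against 2834, 2889 and 2964 in BSGX001 (thi2Δ). All libraries of the deletion strain were higher, by 1.79-fold (log2 fold change 0.84 ± 0.077, SE, 95% interval 0.68 to 1.00, adjusted p = 1.45e-10, edgeR). *HSP10*, which encodes the lid of the same complex on chromosome XV (370524 to 370844, reverse strand), had 590, 465 and 533 CPM in BSGX001 against 478, 485 and 486 in BSGX001 (thi2Δ), and the strains overlapped. Its log2 fold change of -0.13 ± 0.075 (SE, 95% interval -0.28 to 0.021, adjusted p = 0.141, edgeR) did not pass. *HSP10* did pass without BSGX001 replicate 2, at -0.22 (adjusted p = 0.0191, edgeR), and under scaling to *ACT1*.

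Per length, as FPKM, the log2 ratio of *HSP60* to *HSP10* was -0.92, -0.74 and -0.76 in BSGX001 and 0.15, 0.15 and 0.19 in BSGX001 (thi2Δ). On this scale *HSP60* was the lower of the pair in all 3 libraries of BSGX001 and the higher in all 3 of the deletion strain, at a mean of 0.572 and 1.12 times the level of *HSP10*. By counts not scaled to length it was the higher in both strains, at 3.06 and 5.99 times *HSP10*, so their order depends on that scaling. The difference between strains of 0.97 in log2 units, or 1.96-fold, was the same by counts. It had an exact two-sided permutation p = 0.1, the smallest possible.

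**Figure D3:**
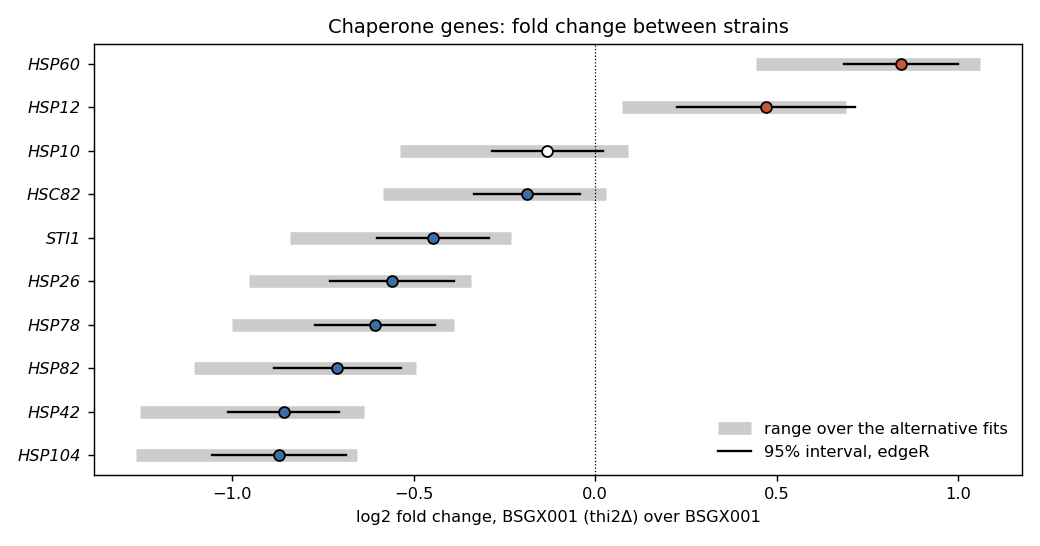
Log2 fold change of each gene in BSGX001 (thi2Δ) over BSGX001 (horizontal axis), with its 95% interval (line) and the range over the 16 alternative fits (grey bar). Filled points passed the test, red higher and blue lower, and the open point, *HSP10*, did not. The grey bars of *HSC82* and *HSP10* cross 0.

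*HSP60* lies among genes that were higher in BSGX001 (thi2Δ) as a block. The block, from *ECM22* to *GAS2* (chromosome XII, 600019 to 817761), was outlined earlier on these same libraries, so its rise is not independent evidence for that of *HSP60*. Of its 107 genes tested, 103 were called higher. The median log2 fold change of the other 106 was 1.06, and 83 of them had a higher value than *HSP60*. The neighbours on the left, *YLR257W* at 0.61 and the glycogen synthase gene *GSY2* at 0.62, and the neighbour on the right, the sphingoid base kinase gene *LCB5* at 0.88, all passed the test and had libraries that did not overlap. *VPS63*, next on the right, was at 1.05 but had at most 14.0 CPM and shares 320 bases with *YPT6*, so that its reads are uncertain.

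The level of *HSP60* was also set against the rest of the block within each library. It lay above the median log2 CPM of the other genes there by 4.77, 4.65 and 4.90 in BSGX001 and by 4.63, 4.66 and 4.76 in BSGX001 (thi2Δ), and the strains overlapped. The difference was -0.095 on the log2 scale (exact two-sided permutation p = 0.3), which 3 against 3 libraries could not tell from 0. It was -0.030 without BSGX001 replicate 3, -0.16 without BSGX001 replicate 2 and -0.15 as FPKM, and the fitted fold change of *HSP60* stood at -0.21 relative to the median of the block, so its size is not settled. The DNA of these strains was not analysed here, and the part of the block in the level of *HSP60* and that of the deletion cannot be told apart. When TMM was computed without the genes of this block and of chromosome I, the calls of all 10 genes stayed as they were.

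**Figure D4:**
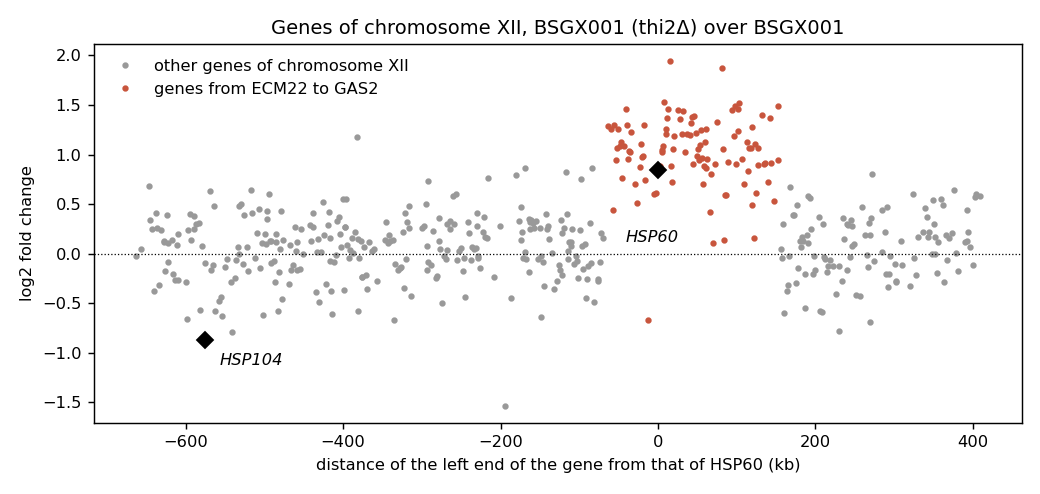
Log2 fold change of the tested genes of chromosome XII (vertical axis) against their distance from *HSP60* in kb (horizontal axis), with the genes from *ECM22* to *GAS2* in red. *HSP60*, at 0.84, lies in the raised block, whose other genes had a median of 1.06, and *HSP104*, at -0.87, lies outside it.

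Of the genes grouped here as those of small heat shock proteins, *HSP26* and *HSP42* fell and *HSP12* rose. *HSP26*, the most abundant of the 10 transcripts per length, on chromosome II (382030 to 382674, forward strand), had 9195, 8596 and 8956 CPM in BSGX001 against 6262, 5979 and 5911 in BSGX001 (thi2Δ). The spread within a strain was small, at 3.38% and 3.08% of the mean, and the strains were wide apart. *HSP26* fell by 0.56 ± 0.084 (SE) in log2 units (adjusted p = 1.71e-06, edgeR).

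*HSP42*, on chromosome IV (806621 to 807748, forward strand), had 1390.3, 1209 and 1417 CPM in BSGX001 against 763, 719 and 734 in BSGX001 (thi2Δ). It fell by 0.86 ± 0.075 (SE) in log2 units (adjusted p = 5.03e-11, edgeR), to 0.552 of its level in BSGX001, nearly as far as *HSP104*.

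*HSP12*, on chromosome VI (107256 to 107585, forward strand), went the other way. It had 418, 456 and 544 CPM in BSGX001 against 541, 728 and 698 in BSGX001 (thi2Δ). Replicate 1 of BSGX001 (thi2Δ) lay just below replicate 3 of BSGX001, so the strains overlapped, and *HSP12* had the widest spread of the 10 genes in both strains, at 13.6% and 15.3% of the mean. *HSP12* rose by 0.47 ± 0.11 (SE) in log2 units (adjusted p = 0.00353, edgeR). With any 1 library omitted its change ranged from 0.39 to 0.59 and passed, but was 0.074 (adjusted p = 0.696) under scaling to *ACT1*.

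The libraries of a strain also varied together. In BSGX001, replicate 2 was the lowest library for 9 of the 10 genes, all but *HSP12*, and in BSGX001 (thi2Δ) replicate 1 was the highest for 7. The strains were still separate for 8 of the 10 genes, where 57.8% of all genes tested had libraries that did not overlap, 29.1% higher and 28.7% lower in BSGX001 (thi2Δ). Of the 8, *HSP60* was higher and 7 were lower. Without BSGX001 replicate 2, *HSP10* joined the 7 genes that fell.

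Partner genes of the same folding pathways were read from 8 lists with 79 genes, all of which were tested. Together 16 were higher and 30 lower, but with library totals it was 37 and 14 and with *ACT1* scaling 0 and 53, so the counts below changed with the scaling. Of all genes tested, 26.1% were higher and 25.2% lower with TMM, and several lists lie near these shares with TMM. The shares of all genes under the other scalings are not given here. Those scalings shift every gene, by 0.22 in log2 units for the median gene with library totals. The counts with library totals or *ACT1* scaling therefore have no background to be read against, and show only how far the scaling matters. None of these medians was tested as a set.

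Of the 11 other Hsp90 co-chaperone genes, 4 rose and 4 fell (median log2 fold change 0.0071), and 7 rose and 2 fell with library totals. *SBA1*, which encodes the yeast p23 protein, had the largest fall, from 651 ± 24.4 to 439 ± 19.3 CPM (SD, n = 3 each, log2 fold change -0.57, adjusted p = 3.77e-08, edgeR). *PPT1*, which encodes the phosphatase that acts on Hsp90, had the largest rise, from 18.7 ± 3.35 to 29.1 ± 3.89 CPM (0.64, adjusted p = 0.000109). The cytosolic Hsp70 system, with which Hsp104 works, had 5 genes lower and 2 higher of 9 (median -0.16), and 4 each way with library totals. *SSE1*, which encodes an Hsp110 nucleotide exchange factor, fell by 0.91 in log2 units, from 2438 ± 125 to 1298 ± 67.0 CPM (adjusted p = 2.25e-11, edgeR). The Hsp70 genes did not move together. *SSA3* rose by 0.30 (adjusted p = 0.00489, edgeR), while *SSA4*, at a higher level, fell by 0.71 (adjusted p = 4.83e-07, edgeR).

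In mitochondria, 3 of 10 further chaperone and protease genes fell and none rose (median -0.072), while with library totals 3 rose and 1 fell. *MDJ1*, which encodes the J-protein of the mitochondrial Hsp70, had the largest fall, from 1461, 1183 and 1353 CPM to 909, 913 and 932 CPM (log2 fold change -0.54, adjusted p = 8.22e-07, edgeR). Among the 8 subunits of TRiC, the cytosolic chaperonin, 4 fell and 1 rose (median -0.12), while with library totals 4 rose and none fell (median 0.095). The largest fall was -0.28 in *CCT3* (adjusted p = 0.000819). Of the 6 prefoldin subunits, which pass unfolded actin and tubulin to TRiC, 3 rose and none fell (median 0.43), while under *ACT1* scaling none rose and 2 fell. *GIM4* had the largest rise, at 0.76 (adjusted p = 3.43e-06), from few reads (14.9 ± 0.946 against 25.3 ± 1.22 CPM).

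Of the 8 remaining genes named *HSP* or encoding aggregate sorting factors, 4 fell and none rose (median -0.16), while with library totals 2 fell and 3 rose (median 0.059). *BTN2*, which encodes a protein that works with Hsp42 in gathering misfolded proteins, fell from 2799.8 ± 313 to 1349.8 ± 88.8 CPM (log2 fold change -1.05, adjusted p = 7.18e-12, edgeR), a larger fitted fall than in any of the 10 genes, with the difference not tested. *HSP32*, *HSP33* and *SNO4* belong to a family of near-identical copies, so their counts are uncertain.

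Of 7 regulator genes, 3 fell and none rose (median -0.13), while with library totals 1 fell and 3 rose (median 0.084). *HSF1* was at 333 ± 10.2 CPM in BSGX001 against 349 ± 4.68 in BSGX001 (thi2Δ) (adjusted p = 0.401, edgeR). It did not pass, though its libraries lay higher in BSGX001 (thi2Δ) without overlap. *MSN2* was at 130.3 ± 5.44 and 129 ± 5.98 CPM (adjusted p = 0.925, edgeR). *MSN4* fell from 575 ± 21.1 to 376 ± 37.3 CPM (log2 fold change -0.61, adjusted p = 3.13e-08). Among 20 stress genes known as targets of Msn2 and Msn4, 6 rose and 7 fell (median -0.13), and 9 rose and 4 fell with library totals. *HOR7* had the largest fall, to 0.501 of its level in BSGX001 (adjusted p = 8.75e-12), and *SIP18* the largest rise, at 0.65 (adjusted p = 0.019, edgeR), from 33.4, 27.8 and 37.9 CPM to 38.6, 55.8 and 61.7 CPM. *GSY2*, a member of this list, lies in the raised block of chromosome XII, and *SSA1*, of the Hsp70 list, lies on the raised chromosome I.

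**Figure D5:**
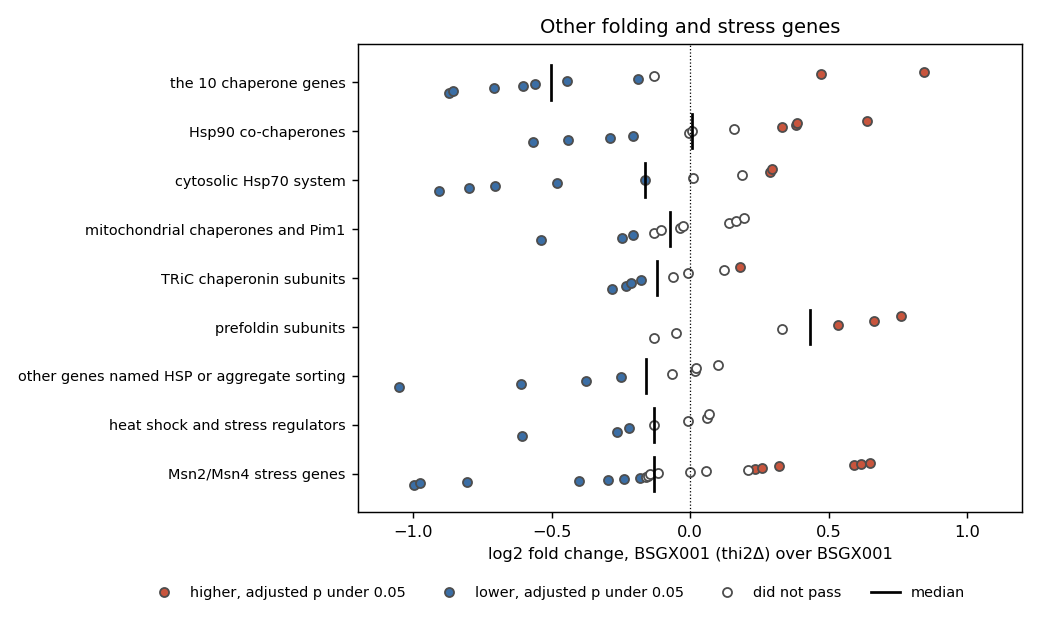
Log2 fold change in BSGX001 (thi2Δ) over BSGX001 (horizontal axis) of the 10 chaperone genes (top row) and of the 8 lists of other folding and stress genes, with a bar at each median and genes that passed the test in red (higher) or blue (lower). The 10 genes have a median of -0.50, with *HSP60* and *HSP12* on the right, and the prefoldin subunits have the highest median, at 0.43.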

How the data were processed

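The authors deposited, unnormalized whole-number counts per gene for each library, and FPKM values, scaled by them to gene length and library size. The submitters' notes name the R64 build and DESeq. The aligner and counter are not given in the sources used here. The authors also deposited their own comparison of the strains (fold changes, p-values and q-values), which was not used, nor were 12 further columns of series-wide tables.

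Counts were scaled with TMM, filtered with filterByExpr and compared with edgeR 4.0.16 in R 4.3.3 (robust quasi-likelihood fit, 5774 genes, Benjamini-Hochberg adjustment). SE was computed as |log2 fold change| divided by √F. Ratios and shares were compared by exact two-sided permutation over the 6 libraries. Alternatives were library totals, DESeq2 size factors, *ACT1* scaling, TMM without the raised regions, other filters, a replicate block, DESeq2 1.42.0, limma 3.58.1 on log2(FPKM + 1) and log2(FPKM + 0.1), a threshold of 0.01, and each library left out. On simulated counts the edgeR step recovered 200 of 200 genes changed 2-fold, with 12 calls among 5578 unchanged genes. The changed genes there were drawn from well-counted ones, equal numbers rose and fell, and all genes had the same dispersion. In the real libraries 51.3% of genes were called and no member changed by 2-fold in the main fit, so these rates do not carry over to the results here. Every pair of libraries differed by more than sampling noise (lowest chi-square divided by its degrees of freedom, 4.00), and counting error limits genes with few reads.

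Genes were named by rule: the 10 members, *THI2*, *ACT1*, *HSF1*, *MSN2*, *MSN4*, the largest rise and fall of each list among called genes whose libraries did not overlap, the 2 tested neighbours on each side of *HSP60*, and the 2 genes most correlated with each member. *COX4*, *GRE3*, *SSA1* and *SSA4*, the family of *HSP32*, *YPT6* and the ends of the segment were added as context after their values were seen. The members and lists were chosen with earlier results of these data known.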

Additional observations from a re-analysis of the deposited data

How the results depend on the processing

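Of the 10 genes, 7 (*HSP82*, *STI1*, *HSP104*, *HSP78*, *HSP60*, *HSP26* and *HSP42*) kept direction and call under all 16 alternative fits. Scaled by library totals, *HSC82* turned to 0.028, and limma gave 0.030 on either FPKM scale. It was between -0.25 and -0.15 with single libraries left out. *HSP10* turned to 0.084 and, in limma, to 0.092 on either FPKM scale, while *ACT1* scaling gave -0.54 (adjusted p = 0.00139, edgeR). Scaling to *ACT1*, itself higher by 0.39 on the log2 scale, left 1 of the 10 genes called higher in place of 2. Over the lists of 79 genes, 16 were higher and 30 lower. Library totals gave 37 and 14, limma on either FPKM scale 39 and 14, and *ACT1* scaling 0 and 53. Relative to TMM, library totals raise and *ACT1* scaling lowers every gene in BSGX001 (thi2Δ), and the shares of all genes called under them are not given here. With the replicate number as a block, 2 of the 10 genes were higher and 7 lower, and 18 and 29 of the list genes. The numbers did not pair the libraries, whose deviations from the strain means correlated at 0.083, -0.068 and -0.054. The summed share of the 10 genes differed by -0.37 percentage points as a share of FPKM, against -0.53 as counts. The ratios of *HSP60* to *HSP10* and of *HSP82* to *HSC82* do not depend on the scaling. With 3 libraries per strain no exact test could fall under 0.1. Summing *HSP82* and *HSC82* was added after the data were seen.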

Other observations

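Heat shock elements of 3 units lie upstream of 80 further genes, of which 78 were tested. Of these, 34.6% were higher and 30.8% lower in BSGX001 (thi2Δ), against 26.1% and 25.2% of all genes tested, and their median log2 fold change was 0.037. Among the 6 chaperone genes with this element, *STI1*, *HSP104*, *HSP78* and *HSP42* fell and *HSP10* did not pass. *HSP60* rose, and lies in the raised block of chromosome XII. Of the chaperone genes without this element, *HSP82*, *HSC82* and *HSP26* fell as well. *HSP12*, without any heat shock element in the window, rose. Whether the element goes with the direction of change was not tested.

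Over the 6 libraries, the genes whose log2 CPM followed *HSP104* most closely were *SOL1* (Pearson r = 1.00) and *KAR2* (r = 0.999), and the same genes followed *HSP82* (r = 0.998 each). *KAR2* encodes the Hsp70 of the endoplasmic reticulum and had a log2 fold change of -0.75. The closest to *HSP26* were *RAD6* and *CHS1*, to *HSP42* *NPP1* and *OSW7*, to *HSP78* *UFD4* and *GCV1*, and to *STI1* *MIL1* and *IRA2*. *HSC82* was followed by *ESA1* and *GBP2*, *HSP60* by *BDH2*, on the raised chromosome I, and *YDR381C-A*, *HSP10* by *KAR9* and *PAC2*, and *HSP12* by *MRPS8* and *ILM1*. All these r lay between 0.970 and 1.00, over 6 libraries that fall into 3 of each strain, so that a difference between strains alone raises r, and they are a description only.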
